A study of Mus musculus with 19 samples.

Results

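The receptors for serotonin, dopamine, noradrenaline, acetylcholine (muscarinic type), histamine and adenosine were examined in RNA-seq and ribosome profiling libraries of mouse hippocampal slices. They were chosen by gene symbol (Htr1 to Htr7, Drd1 to Drd5, Adra1 and Adra2, Adrb1 to Adrb3, Chrm1 to Chrm5, Hrh1 to Hrh4, and Adora1 to Adora3) and numbered 41 of the 20436 genes in the count tables. They comprised 14 serotonin, 9 adrenergic, 5 dopamine, 5 muscarinic, 4 histamine and 4 adenosine receptor genes. All slices came from wild-type male mice of postnatal days 28 to 42 on a C57BL/6J background, with slices of several mice pooled in each replicate. Slices were incubated for 5 min with vehicle (artificial cerebrospinal fluid, here called basal) or with 100 µM DHPG, an agonist of group I metabotropic glutamate receptors, and all were then placed in cycloheximide at 100 µg/ml, which stops ribosomes on the mRNA. RNA-seq gave the RNA level of each gene in 4 basal and 5 DHPG libraries, and ribosome-protected fragments (RPFs, or footprints), which a ribosome shields from nuclease, gave its ribosome occupancy in 5 basal and 5 DHPG libraries. The slices hold every cell type of the tissue, so fewer cells of a type and less RNA per cell cannot be told apart. The questions asked of the data were which receptors were measured, how their footprints compared with their RNA, and whether either moved with DHPG.

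Axons from the raphe nuclei, locus coeruleus, midbrain, basal forebrain and hypothalamus release serotonin, noradrenaline, dopamine, acetylcholine and histamine in the hippocampus, and the cell bodies that make these transmitters lie outside it. Adenosine is formed locally, largely from released ATP. All of the receptors except Htr3a and Htr3b, which form a ligand-gated cation channel, are G protein-coupled: the Gq-coupled ones (Chrm1, Chrm3, Chrm5, Adra1, Htr2, Hrh1) activate phospholipase C beta, as the receptors that DHPG acts on do, the Gs-coupled ones (Drd1, Drd5, Adrb, Htr4, Htr6, Htr7, Hrh2, Adora2) raise cyclic AMP, and the Gi/o-coupled ones (Chrm2, Chrm4, Drd2 to Drd4, Adra2, Htr1, Htr5, Hrh3, Adora1, Adora3) lower it.

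Since the RPF of a gene was counted on its coding sequence without the first and last 30 nt, the start of the coding sequence is shown for the receptors that stood at the ends of the range of footprints over RNA (Adra2c and Htr7 at the low end, Htr2a, Chrm2 and Htr2c at the high end) and for Chrm1, the most abundant receptor. Capitals mark the start codon, and the lower case bases complete the 30 bases left out of the RPF count, in the transcript strand of mm10 (GENCODE).
Adra2c: ATGgcgtccccagcgctggccgcggcgctg
Htr7: ATGatggacgttaacagcagcggccgcccc
Htr2a: ATGgaaattctctgtgaagacaatatctcc
Chrm2: ATGaataactcaactaactcctcgaacaat
Htr2c: ATGgtgaacctgggcactgcggtgcgctca
Chrm1: ATGaacacctcagtgccccctgctgtcagt
These first coding bases lie in coding exons, at chr5:35279886-35279915 (plus strand) in Adra2c, chr19:36057224-36057253 (minus strand) in Htr7, chr14:74641933-74641962 (plus strand) in Htr2a, chr6:36523210-36523239 (plus strand) in Chrm2, chrX:147072453-147072482 (plus strand) in Htr2c and chr19:8677933-8677962 (plus strand) in Chrm1. The share of G and C over the whole coding sequence was 65.8% in Adra2c, 57.9% in Chrm1, 56.7% in Htr7, 48.4% in Htr2a, 48.3% in Chrm2 and 45.9% in Htr2c.

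Most of the receptors gave enough counts for a test, and every muscarinic receptor did. Of the 41 genes, 32 passed the filter on low counts (edgeR's filterByExpr) in RNA and 30 in RPF, and these 30 passed in both. Adora2a, the adenosine receptor of the striatum, and 1 receptor not reported here passed in RNA alone. The 9 that passed in neither were Adora3, Adra2b, Adrb3, Drd3, Drd4, Hrh4, Htr1d, Htr2b and Htr3b. Among these, Hrh4, a receptor of immune cells, had at most 1 count in a library and no RPF count in the 10 footprint libraries, and Htr3b, which joins Htr3a in the channel of some cells, had 1 RNA count and 1 RPF count over all 19 libraries. Drd3 had at most 19 RPF counts in a library and Adora3 at most 12, and the exons of Adora3 overlap those of Tmigd3 on the same strand. Levels are given in CPM, counts scaled to a common library size by edgeR's TMM method. Totals were 4870813 to 7793244 counts per RNA library and 5692064 to 22092434 per RPF library. At these totals a count of 0 allows a level of up to 0.385 to 0.616 CPM in RNA and up to 0.136 to 0.527 CPM in RPF. These upper levels cover counting error only and use the raw totals, without the TMM scaling. Receptors below these levels can have a count of 0 at this depth, which is not the same as absent. They can also have counts, as Drd4 did in basal RNA at an average of 0.202 CPM.

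Levels of different genes were compared per kilobase, as CPM per kb of the annotated transcript for RNA and CPM per kb of the counted coding sequence for RPF. In basal slices, Chrm1 had the highest footprint level per length (175.1 ± 11.5 CPM per kb, SD, n = 5), followed by Adora1 (70.7 ± 5.21) and Adra1d (51.5 ± 1.75). Next came Htr2c (30.8 ± 4.43), Chrm3 (30.1 ± 2.25), Chrm4 (25.4 ± 1.08), Hrh3 (22.4 ± 1.88) and Htr1a (17.2 ± 2.07), all in CPM per kb of footprints. Each of the remaining tested receptors was between 0.515 and 12.9 CPM per kb of footprints. By RNA per length the order began with Adra1d (54.2 ± 15.1 CPM per kb, SD, n = 4), Chrm1 (45.0 ± 14.8), Chrm4 (27.0 ± 8.38), Hrh3 (21.6 ± 6.48) and Adra2c (20.7 ± 4.39), whose spreads overlap from one to the next. Adra2c was the 5th of 41 receptors by RNA per length and the 26th by footprints per length, while Htr2c was the 16th by RNA and the 4th by footprints. The RNA level per length rests on the annotated transcript: that of Chrm4, Chrm5, Htr6, Htr1b and Adra1d is 88.8% to 99.8% coding, so that any untranslated ends not annotated there would lower their RNA per kb.

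**Figure D1:**
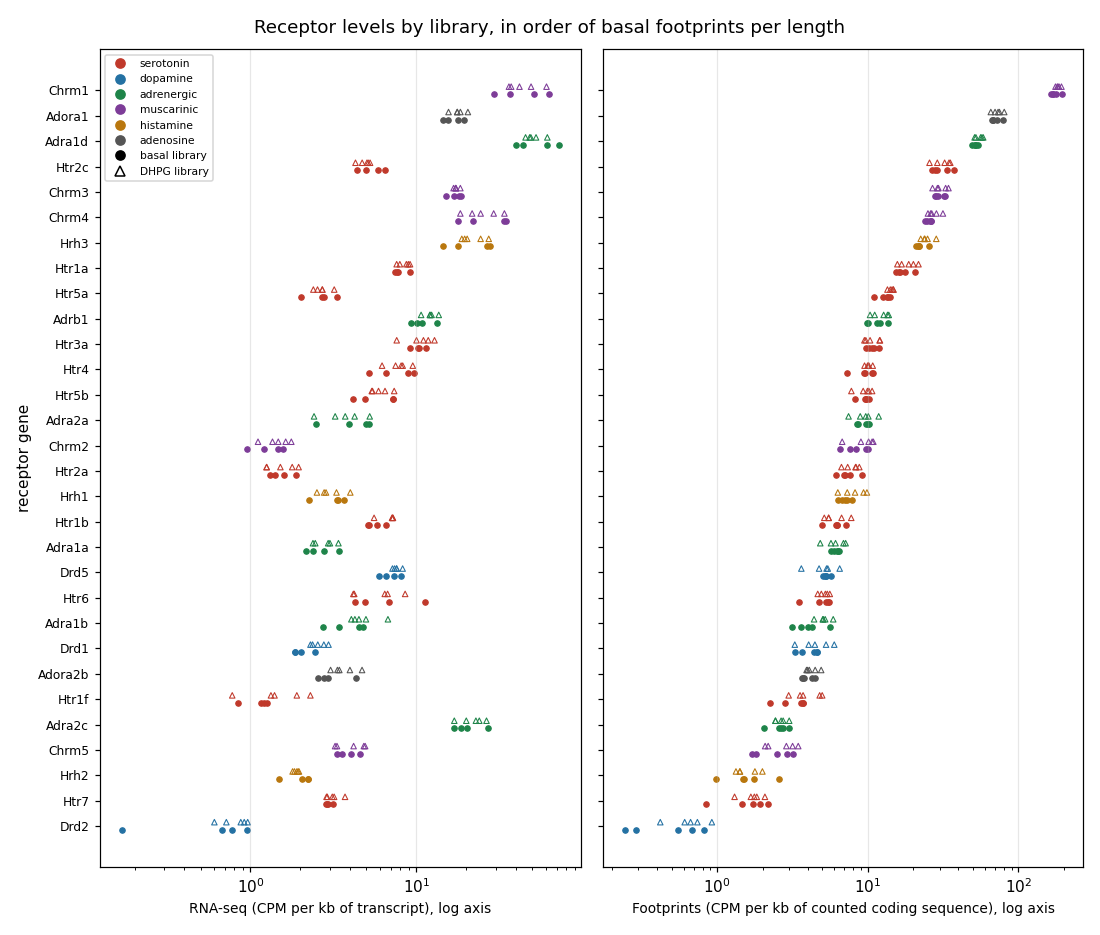
Level of each of the 30 receptors tested in both assays, in RNA-seq libraries (left, CPM per kb of transcript) and footprint libraries (right, CPM per kb of counted coding sequence), on log axes. Filled circles are basal libraries and open triangles DHPG libraries, coloured by transmitter, in order of basal footprints. Chrm1 lies at the top of the footprint panel at 175.1 CPM per kb on average, and Adra2c stands far to the right in RNA for its place in the order.

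All 5 muscarinic receptors were measured in both assays. Chrm1, the Gq-coupled receptor that carries much of the cholinergic effect on pyramidal cells, was at 216, 224, 256, 225 and 235 CPM of footprints in basal replicates 1 to 5, and at 230, 319, 393 and 185 CPM of RNA in basal replicates 1 to 4. The footprint libraries spanned a narrower range than the RNA libraries, in which replicates 2 and 3 were high. Chrm3, also Gq-coupled, was at 47.7 to 55.8 CPM of footprints and 65.0 to 80.4 CPM of RNA. Chrm4, the Gi/o-coupled receptor, was at 33.0 to 36.3 CPM of footprints and 25.6 to 49.8 CPM of RNA, again with replicates 2 and 3 the higher in RNA. Chrm2, the autoreceptor of cholinergic terminals that interneurons also carry, was at 12.9, 13.5, 10.2, 11.1 and 8.76 CPM of footprints and 6.88, 8.34, 8.88 and 5.41 CPM of RNA in basal libraries. Chrm5 was the lowest of the 5 per length in footprints, at 2.42 ± 0.656 CPM per kb (SD, n = 5), and Chrm2 the lowest in RNA, at 1.30 ± 0.275 CPM per kb (n = 4).

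Among the adrenergic receptors, the alpha1 subtype Adra1d led in both assays, at 79.9, 83.1, 84.7, 87.8 and 83.6 CPM of footprints and 82.8, 116, 137 and 75.9 CPM of RNA in basal libraries. Its footprints varied little between replicates and its RNA more, with replicates 2 and 3 high as for Chrm1. Per length, Adrb1, the main beta receptor of forebrain neurons, stood at 11.4 ± 1.56 CPM per kb of footprints (SD, n = 5), Adra2a, an autoreceptor of noradrenergic cells, at 9.41 ± 0.810, Adra1a at 6.15 ± 0.32 and Adra1b at 4.12 ± 0.935. Adra2c, the other alpha2 autoreceptor of the brain, stood at 2.60 ± 0.357 CPM per kb of footprints.

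The serotonin receptors with most footprints per length were Htr2c (30.8 CPM per kb) and Htr1a (17.2), followed by Htr5a (12.9 ± 1.22, SD, n = 5), Htr3a (10.7 ± 0.809), Htr4 (9.53 ± 1.42), Htr5b (9.51 ± 0.743) and Htr2a (7.38 ± 1.10). Htr1b was at 6.17 ± 0.811, Htr6 at 4.89 ± 0.848, Htr1f at 3.22 ± 0.656 and Htr7 at 1.62 ± 0.508 CPM per kb of footprints. Htr2c, the Gq-coupled receptor that is also abundant in choroid plexus, was at 36.5, 48.9, 44.4, 37.8 and 35.3 CPM of footprints and 30.8, 27.9, 23.7 and 20.9 CPM of RNA in basal libraries. Of 13 choroid plexus markers, 2 passed the filter in RNA and 5 in RPF. Ttr averaged 0.0898 CPM in basal RNA and 0.339 CPM in basal RPF, and Folr1 0.0712 and 0.302. Kcne2 had 0 basal RNA counts and 0.0281 CPM of RPF. Sostdc1 averaged 1.06 CPM in basal RNA and 2.63 CPM in basal RPF, Prlr 1.47 and 1.86, and Kcnj13 0.55 and 1.18. The summed level of the list was 206.5 to 331.1 CPM in basal RNA and 279.9 to 585.5 CPM in basal RPF, most of it Enpp2 (220.7 and 438.2 CPM), which oligodendrocytes also express, followed by Kl (28.8 and 13.9 CPM). What part of the Htr2c values comes from choroid plexus was not tested. Htr1a, the Gi/o-coupled receptor of pyramidal and granule cells, was at 34.7, 40.9, 34.1 and 33.3 CPM of RNA and at 21.3, 24.8, 19.4, 18.4 and 19.7 CPM of footprints, so that every RNA library was above every footprint library.

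The dopamine receptors were lower. Drd5, the Gs-coupled receptor typical of hippocampus, led at 5.29 ± 0.237 CPM per kb of footprints (SD, n = 5), with 7.09, 6.94, 7.29, 7.24 and 7.80 CPM of footprints and 18.7, 25.4, 20.7 and 22.9 CPM of RNA in basal libraries. Drd1, the other Gs-coupled receptor, was at 4.11 ± 0.600 CPM per kb of footprints, below Drd5 in every basal footprint library. Drd2 was at 0.515 ± 0.247 CPM per kb, in 2 to 19 RPF counts and 3 to 12 RNA counts per basal library, so its values are coarse. The striatal list, 11 genes of medium spiny neurons where Drd1, Drd2 and Adora2a are high, summed to 103.1 to 116.7 CPM in basal RNA and 183.5 to 191.3 CPM in basal RPF. It includes genes that hippocampal cells use too (Foxp1, Penk, Pdyn), while Isl1 was at 0 in both assays. What part of the Drd2 and Adora2a counts comes from tissue outside the hippocampus was not tested.

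Hrh3, the Gi/o-coupled autoreceptor of histamine neurons and a receptor on many terminals, led the histamine receptors with 27.6, 26.5, 27.7, 32.7 and 27.9 CPM of footprints and 48.3, 74.6, 72.1 and 39.2 CPM of RNA in basal libraries. Hrh1 was at 7.03 ± 0.578 and Hrh2 at 1.67 ± 0.588 CPM per kb of footprints (SD, n = 5). Adora1, the Gi/o-coupled adenosine receptor that damps transmitter release, was at 62.6, 72.6, 61.8, 66.4 and 61.1 CPM of footprints and 77.3, 88.5, 95.9 and 71.9 CPM of RNA. Adora2b was at 3.97 ± 0.361 CPM per kb of footprints, and Adora2a at 0.504 ± 0.259. Adora1 was thus far above its relatives in every basal library of either assay.

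Marker genes of the cells that release these transmitters were low. Of 12 markers of monoamine and cholinergic neurons, 1 passed the filter in RNA and 5 in RPF, and their summed level was 7.98 to 10.3 CPM in basal RNA and 6.65 to 8.61 CPM in basal RPF. The serotonin transporter Slc6a4 averaged 0.0779 CPM and the choline acetyltransferase Chat 0.297 CPM in basal RNA, and the noradrenaline transporter Slc6a2 had 0 basal RNA counts. Of the 8 enzymes that break the transmitters down, 7 passed in each assay, among them Ache at 136.0 CPM, Adk at 93.9 CPM and Maoa at 28.1 CPM of basal RNA.

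The ratio of RPF to RNA asks how many footprints a receptor had for its RNA, relative to the other genes. It was fitted by edgeR over basal replicates 1 to 4, which have both libraries, with the replicate number as a block. A log2 ratio of 0 means that TMM-scaled RPF and RNA counts were equal. The receptors lay toward the low side: 23 of the 30 tested were below 0 and 7 above, with a median log2 ratio of -0.27 against -0.00071 over all 12691 genes tested. At an adjusted p of 0.05, 12 of 30 receptors were lower (34.7% of all genes tested were) and 3 of 30 higher (34.6% of all genes), so the share of lower receptors was near that of all genes and the share of higher ones below it. The 3 higher receptors were Htr2c, Chrm2 and Htr2a. The 12 lower ones were Adra2c, Htr7, Htr4, Drd5, Hrh2, Drd2, Adrb1, Adra1b, Hrh3, Htr1a, Chrm3 and Htr3a. When each replicate was left out in turn, 9 of the 12 and 2 of the 3 kept their call in all 4 fits. Chrm3, Drd2 and Htr2a were called without replicate 4 and not without replicate 1, 2 or 3, and Htr3a was called in 0 of the 4 fits by edgeR. By family, the lower calls were 4 of 11 serotonin, 3 of 6 adrenergic, 2 of 3 dopamine, 2 of 3 histamine, 1 of 5 muscarinic and 0 of 2 adenosine receptors by edgeR (also 0 of 2 at an unadjusted p under 0.05).

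**Figure D2:**
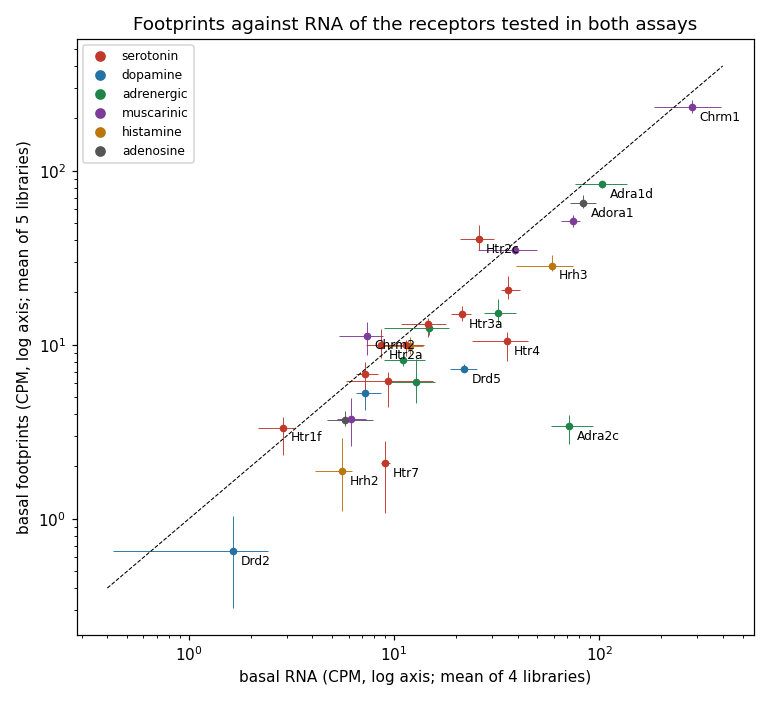
Mean basal footprint level against mean basal RNA level (CPM, log axes) of the 30 receptors tested in both assays, with bars from the lowest to the highest library and a dashed line where both CPM values are equal. Adra2c lies far below the line, at 71.2 CPM of RNA and 3.42 CPM of footprints, and Chrm2 and Htr2c lie above it.

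Adra2c had by far the lowest ratio of the receptors. Its RNA was at 58.3, 69.6, 92.8 and 64.2 CPM in basal replicates 1 to 4, while its footprints were at 3.39, 2.68, 3.46, 3.97 and 3.58 CPM in basal replicates 1 to 5. Every RNA library was thus more than an order of magnitude above every footprint library. The log2 ratio was -4.26 ± 0.18 (SE; adjusted p = 2.1e-06, edgeR's quasi-likelihood test), a ratio of 0.0523, and 7 of the 12691 genes tested had a lower one. Adra2c is a gene of 1 exon at chr5:35278319-35281763 (mm10, plus strand), and no annotated gene overlaps its exon. Its annotated 5′ leader is 1567 nt long and holds 7 ATGs upstream of the start codon. Of the 12639 genes with an annotated coding length, 42 (0.332%) had a leader at least as long, with a median log2 ratio of -0.0095, and 256 (2.02%) had a coding sequence at least as rich in G and C, with a median log2 ratio of -0.30. What part leader or base composition has in the ratio of Adra2c was not tested.

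The next lowest were 2 Gs-coupled serotonin receptors. Htr7 was at 8.68, 8.95, 8.88 and 9.54 CPM of RNA against 1.08, 1.89, 2.46, 2.22 and 2.79 CPM of footprints in basal libraries, with no overlap, a log2 ratio of -2.02 ± 0.22 (SE) and an adjusted p of 5.8e-05 (edgeR). Htr4 was at 24.1, 30.5, 45.0 and 41.7 CPM of RNA against 8.02, 10.6, 11.9, 11.8 and 10.3 CPM of footprints, with a log2 ratio of -1.55 ± 0.13 (SE; adjusted p = 2.0e-05, edgeR). In both genes every RNA library was above every footprint library. Drd5, the leading dopamine receptor, had a log2 ratio of -1.44 ± 0.15 (SE; adjusted p = 4.3e-05), and Hrh3, the leading histamine receptor, one of -0.83 ± 0.20 (SE; adjusted p = 0.0061), both by edgeR.

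At the other end, Htr2c had a log2 ratio of 0.88 ± 0.15 (SE; adjusted p = 0.00078) and Chrm2 one of 0.86 ± 0.18 (SE; adjusted p = 0.0026), both by edgeR. Their ratios were positive in all 4 basal replicates, from 0.40 to 1.08 for Htr2c and from 0.37 to 1.18 for Chrm2 on the log2 scale. Htr2a, the Gq-coupled receptor of psychedelic drugs, had a smaller ratio of 0.44 ± 0.14 (SE; adjusted p = 0.024, edgeR), with the replicates between 0.36 and 0.56. Its call was lost when replicate 1, 2 or 3 was left out (log2 ratio 0.40 to 0.45). Htr3a, the channel subunit of interneurons and the serotonin receptor with most RNA per length, had a log2 ratio of -0.32 ± 0.12 (SE; adjusted p = 0.045, edgeR), which fell short without any 1 of the 4 replicates (-0.32 to -0.31) and with no filter on low counts (-0.28). For Chrm1, Adra1d and Adora1, the leading receptors of their families, the log2 ratios were -0.066 ± 0.16, -0.086 ± 0.16 and -0.16 ± 0.12 (SE), none past the threshold in this fit.

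The footprints were counted on the coding sequence and the RNA on the whole transcript, so the ratio also moves with the share of a transcript that is coding. With both counts taken per length and centred on the median gene, 7 of 30 receptors were higher (39.3% of all genes tested) and 15 of 30 lower (39.4% of all genes). The 3 higher and 10 of the 12 lower calls were kept per length. Chrm3 (log2 ratio -0.046 per length) and Htr1a (0.26 per length) were the other two. Per length the ratio of Adra2c was -3.91 ± 0.18 (SE), that of Htr7 -1.81 ± 0.22 and that of Htr4 -0.51 ± 0.13 on the log2 scale. Chrm1 and Adora1, of whose transcripts 22.0% and 19.7% is coding, turned to 1.14 ± 0.16 and 1.23 ± 0.12 and were higher at adjusted p of 0.00017 and 2.2e-05 (edgeR), so no direction is given for them. Adra1d, with a transcript annotated as mostly coding, moved to -0.90 ± 0.16 per length and was lower at an adjusted p of 0.00078 (edgeR). The 3 higher ratios grew, to 1.45 ± 0.14 for Htr2a, 1.90 ± 0.18 for Chrm2 and 1.69 ± 0.15 for Htr2c (SE, log2 scale per length).

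The DHPG libraries gave separate measurements of the same ratios. In them all 3 higher and all 12 lower receptors were called in the same direction, which makes 3 of 30 higher (37.7% of all genes tested were). With 5 more called lower, 17 of 30 were lower there (38.2% of all genes). Adra2c had a log2 ratio of -4.29 ± 0.13 (SE) there, Htr7 one of -1.98 ± 0.16, Chrm2 one of 0.76 ± 0.16 and Htr2c one of 0.99 ± 0.12. The receptors called in both basal and DHPG libraries thus include the 3 higher and 10 lower ones that kept their call per length.

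**Figure D3:**
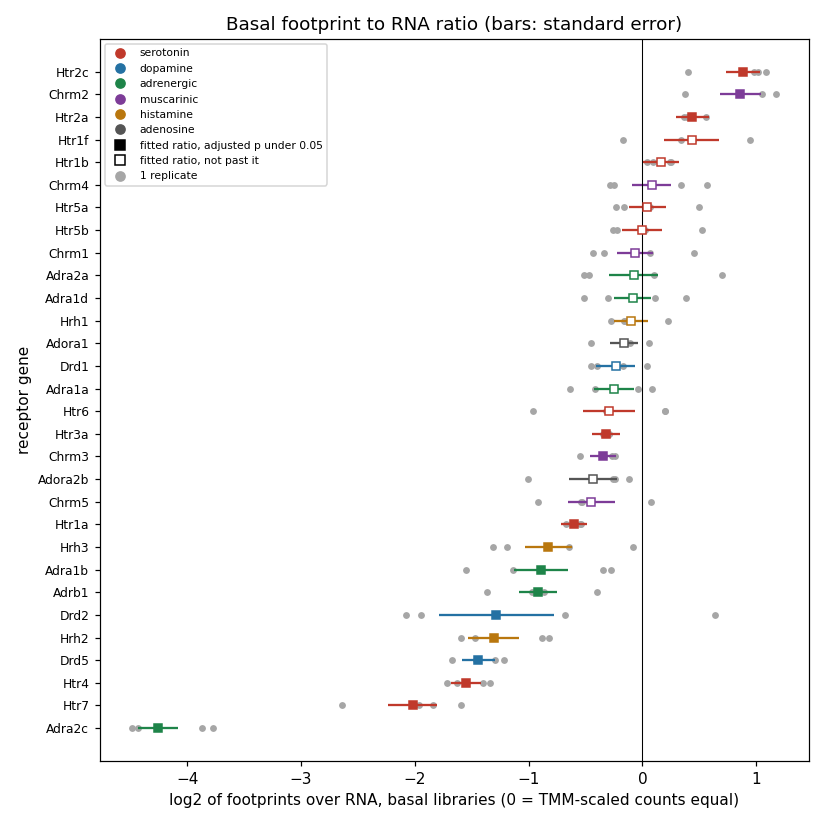
Log2 ratio of RPF to RNA in basal libraries for the 30 receptors tested in both assays, in order. Grey points are replicates 1 to 4, squares the fitted ratio with its standard error, filled where the adjusted p is under 0.05. Adra2c lies at -4.26, apart from Htr7 at -2.02, and Htr2c and Chrm2 lie at the top at 0.88 and 0.86.

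The receptors shared some features of sequence that the choice by name did not use. Their median annotated 5′ leader was 299.5 nt, against 179.0 nt in the other 12609 genes tested, and 10% of them had no ATG in the leader, against 49.2% of the others. The median share of G and C in the coding sequence was 55.6%, against 53.2%. Over the 30 receptors the log2 ratio had a Spearman correlation of -0.34 with the G and C share, 0.11 with leader length and 0.12 with the number of upstream ATGs. Over the other genes these were -0.32, -0.056 and -0.19. The points share their libraries and genes are not independent replicates, so these values are a description. A leader of 0 nt is annotated for Chrm4 and Chrm5, whose transcript models hold little but the coding sequence.

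The proteins that act next to the receptors were measured in the same fit, from lists of pathway genes. The adenylyl cyclases, which make cyclic AMP under Gs and Gi control, were lower in footprints for their RNA in 8 of 8 tested (median log2 ratio -1.98, lowest -3.78), against 34.7% of all genes. The G protein-coupled receptor kinases and arrestins, which switch receptors off, were lower in 5 of 6 tested and higher in none (median -1.73). The G protein alpha subunits were higher in 4 and lower in 3 of 9 tested (median 0.27), and the phospholipase C beta genes higher in 2 and lower in 1 of 4. With both counts taken per length, the cyclases were lower in 8 of 8 (39.4% of all genes were). The kinases and arrestins were then lower in 4 and higher in 1 of 6. The alpha subunits were higher in 5 and lower in 2 of 9, and phospholipase C beta higher in 1 and lower in 2 of 4. Markers of hippocampal pyramidal and granule neurons were higher in 7 of 9 tested and those of interneurons in 8 of 9, against 34.6% of all genes. This was not particular to hippocampal neurons. Higher calls were made for 7 of 8 oligodendrocyte, 6 of 8 thalamus, 5 of 8 astrocyte and 6 of 10 striatal markers. For endothelial and mural cells they were 2 of 8, and for microglia 0 of 8. Per length, higher calls were made for 7 of 9 pyramidal and granule and 9 of 9 interneuron markers (39.3% of all genes). They were 7 of 8 for oligodendrocytes, 5 of 8 for thalamus, 5 of 8 for astrocytes and 5 of 10 for striatal neurons. Endothelial and mural cells then had 1 of 8, and microglia 2 of 8.

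DHPG moved no receptor past the threshold in either assay. In RNA, 0 of the 32 receptors tested passed an adjusted p of 0.01 by edgeR (0.00773% of all genes tested did, 1 of 12935), 0 passed by DESeq2 with the replicate block or by ComBat followed by DESeq2, and 3 had an unadjusted p under 0.05 (8.02% of all genes did). In RPF, 0 of 30 passed an adjusted p of 0.05 by edgeR (0.22% of all genes, 29 of 13208), 0 by either DESeq2 fit, and 7 had an unadjusted p under 0.05 (10.8% of all genes). All 10 of these nominal differences, with Adra1b counted in both assays, were toward more after DHPG. Over all genes tested, the nominal differences also leaned that way, with 673 higher and 364 lower in RNA. In RPF 865 were higher and 556 lower. The fold changes were mostly small and above 0, with 25 of 32 receptors higher in RNA (median log2 fold change 0.09) and 26 of 30 in RPF (median 0.09), against 52.1% and 51.4% of all genes tested (medians 0.0068 and 0.0031). The median over the RNA fold changes was 0.021 without replicate 4, whose pair had a median change of 0.28, against -0.011 to 0.051 in the other three pairs. In RPF the pair medians ran from -0.0046 to 0.16, and the median fold change from 0.061 without replicate 2 to 0.11 without replicate 3. Some marker lists of cell types also lay to 1 side, not always in both assays. In RNA, 8 of 8 oligodendrocyte markers (median log2 fold change 0.16) and 9 of 9 markers of pyramidal and granule neurons (0.10) had values above 0, and 7 of 9 interneuron markers (-0.072) had values below 0. In RPF, 8 of 8 microglia (0.096), 8 of 8 astrocyte (0.078) and 7 of 8 oligodendrocyte markers (0.092) were above 0, and 6 of 8 markers of endothelial and mural cells (-0.11) below 0. Lists were more evenly split elsewhere. In RPF, 5 of 9 markers of pyramidal and granule neurons and 5 of 9 interneuron markers were above 0. In RNA, 5 of 8 microglia and 5 of 10 striatal markers were. Of these lists, 1 oligodendrocyte and 1 interneuron marker passed the threshold, both higher in RPF. Summed levels overlapped between groups, as for oligodendrocytes at 2665 to 5644 CPM in basal and 3042 to 6338 CPM in DHPG RNA. What part the mix of cells has in the receptor values was not tested.

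**Figure D4:**
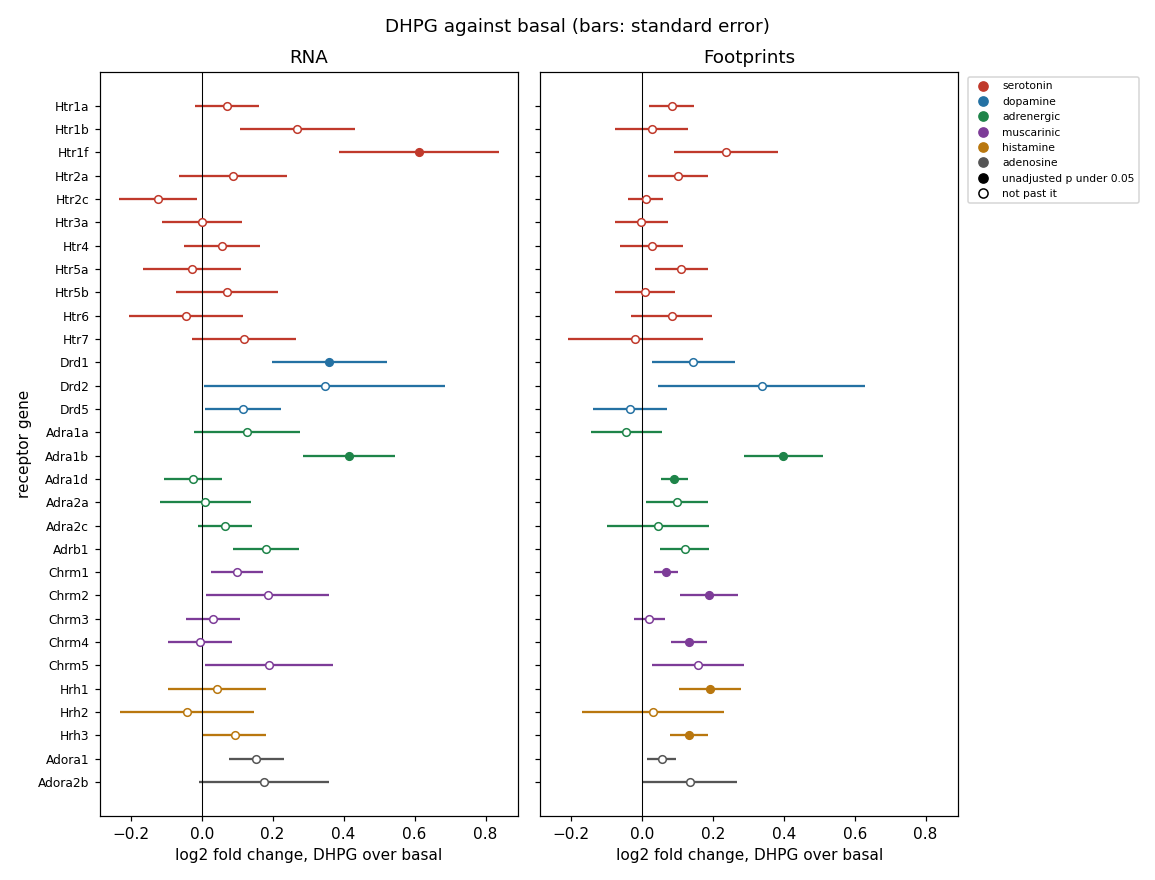
Log2 fold change of DHPG over basal in RNA (left) and footprints (right) for the 30 receptors tested in both assays, by family, with standard errors from edgeR. Filled points have an unadjusted p under 0.05 (3 in RNA and 7 in footprints), and no receptor passed after adjustment over all genes.

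Adra1b, a Gq-coupled noradrenaline receptor that is dense in the thalamus, had the smallest p of the receptors in both assays. Its RNA was at 11.3, 15.1, 15.9 and 9.12 CPM in basal replicates 1 to 4 and at 13.5, 16.5, 22.4, 15 and 14.2 CPM in DHPG replicates 1 to 5. Its footprints were at 8.33, 5.96, 4.65, 6.30 and 5.33 CPM in basal and 7.46, 7.52, 7.74, 8.75 and 6.53 CPM in DHPG replicates 1 to 5. The groups overlapped in both assays, but the DHPG library was the higher of the pair in 4 of 4 RNA pairs and 4 of 5 RPF pairs. The log2 fold change was 0.42 ± 0.13 in RNA (SE; adjusted p = 0.54, edgeR) and 0.40 ± 0.11 in RPF (SE; adjusted p = 0.12). With no filter on low counts the RPF difference had an adjusted p of 0.028 in edgeR, the one setting of those tried in which a receptor passed, and over all settings its adjusted p ran up to 1. Its ratio of RPF to RNA moved by -0.022 ± 0.17 on the log2 scale (SE; adjusted p = 0.99).

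Htr1f, a Gi/o-coupled serotonin receptor, and Drd1 had the other two unadjusted p under 0.05 in RNA. Htr1f RNA was at 3.11, 3.25, 2.18 and 2.99 CPM in basal and 3.60, 5.92, 3.42, 4.91 and 2.002 CPM in DHPG replicates 1 to 5, in 14 to 21 counts per basal library. The groups overlapped through DHPG replicate 5, which has no basal partner. The log2 fold change was 0.61 ± 0.23 in RNA (SE; adjusted p = 0.55, edgeR; higher in 4 of 4 pairs) and 0.24 ± 0.15 in RPF (SE; adjusted p = 0.59; higher in 4 of 5 pairs). Drd1 RNA was at 8.68, 7.12, 6.54 and 6.55 CPM in basal and 8.10, 10.4, 9.76, 8.97 and 8.34 CPM in DHPG libraries, where basal replicate 1 lay within the DHPG range. Its log2 fold change was 0.36 ± 0.16 in RNA (SE; adjusted p = 0.60; higher in 3 of 4 pairs) and 0.15 ± 0.12 in RPF (SE; adjusted p = 0.70; higher in 3 of 5 pairs).

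Most markers of thalamus tested were higher after DHPG in these libraries, beside Adra1b. Of the 11 listed, 10 were tested in RPF, where 6 were called higher and none lower (0.22% of all genes were called). Their median log2 fold change there was 0.37. In RNA 8 were tested and 1 was called higher (median 0.45), against 0.00773% of all genes. Calb2 went the other way, with log2 fold changes of -0.10 in RPF and -0.23 in RNA (unadjusted p = 0.011 and 0.019, edgeR). The list was written with these calls known, so its direction is no independent evidence. Their summed level was 257.5 to 324.1 CPM in basal and 271.9 to 372.3 CPM in DHPG footprints, and 163.7 to 200.8 and 175.0 to 232.4 CPM in RNA. In RPF their median change by pair was 0.25, 0.55, 0.63, 0.41 and -0.19 in replicates 1 to 5, where Adra1b had changes of -0.16, 0.33, 0.72, 0.46 and 0.28 and Htr1f 0.35, 0.46, -0.31, 0.69 and 0.31. In RNA the list moved by 0.16, 0.58, 0.39 and 0.46, Adra1b by 0.25, 0.13, 0.49 and 0.70, and Htr1f by 0.19, 0.80, 0.58 and 0.66 in replicates 1 to 4. In footprints Adra1b was lower in replicate 1, where the list was higher, and higher in replicate 5, where the list was lower. Both were higher in footprint replicates 2 to 4 and in RNA replicates 1 to 4. The part of thalamic tissue in the Adra1b and Htr1f values was not tested.

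**Figure D5:**
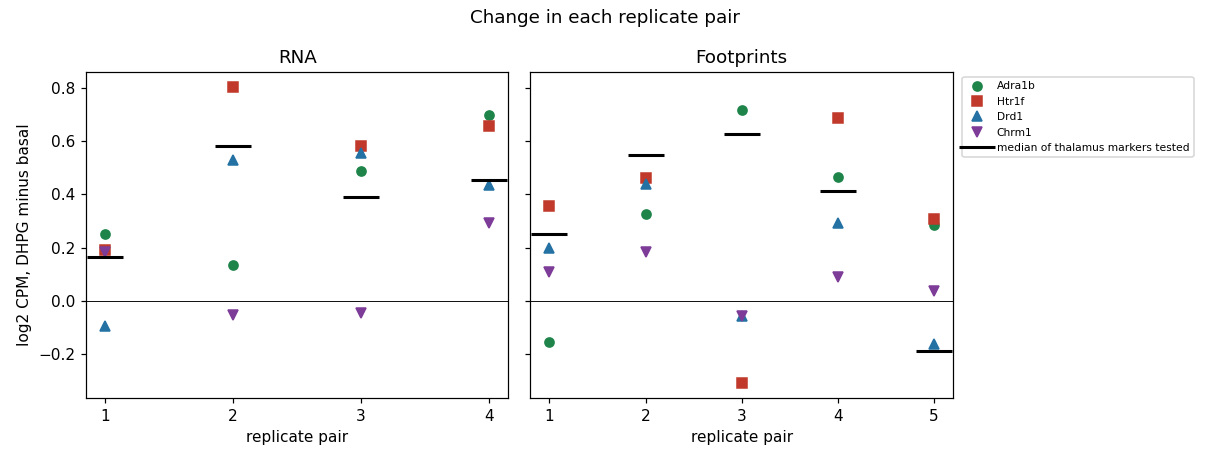
Change in log2 CPM from basal to DHPG within each replicate pair, in RNA (left, 4 pairs) and footprints (right, 5 pairs), for Adra1b, Htr1f, Drd1 and Chrm1, with a black bar at the median of the thalamus markers tested. Adra1b is above 0 in all RNA pairs and below 0 in footprint replicate 1, and Chrm1 stays between -0.057 and 0.29.

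The 6 other receptors with an unadjusted p under 0.05 in RPF were 3 muscarinic, 2 histamine and 1 adrenergic receptor, with small differences. Chrm2 footprints were at 12.9, 13.5, 10.2, 11.1 and 8.76 CPM in basal and 14.6, 14.3, 13.5, 12.0 and 9.04 CPM in DHPG libraries, higher in 5 of 5 pairs but with overlapping groups, for a log2 fold change of 0.19 ± 0.082 (SE; adjusted p = 0.38, edgeR). Chrm4 was likewise higher in 5 of 5 pairs (0.13 ± 0.050, adjusted p = 0.32), and so was Hrh3 (0.13 ± 0.053, adjusted p = 0.35). Chrm1 had a log2 fold change of 0.068 ± 0.033 (SE; adjusted p = 0.45), with 4 of 5 pairs higher. Hrh1, the Gq-coupled histamine receptor, had one of 0.19 ± 0.088 (adjusted p = 0.42) and Adra1d one of 0.092 ± 0.039 (adjusted p = 0.37), each with 4 of 5 pairs higher. In RNA these receptors had log2 fold changes of 0.19 ± 0.17 (Chrm2), -0.0045 ± 0.091 (Chrm4), 0.092 ± 0.088 (Hrh3), 0.099 ± 0.072 (Chrm1), 0.043 ± 0.14 (Hrh1) and -0.025 ± 0.081 (Adra1d), none past the threshold.

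The leading adenosine, dopamine and serotonin receptors did not pass the threshold either. Adora1 had a log2 fold change of 0.15 ± 0.077 in RNA (SE; adjusted p = 0.63, edgeR), higher in 3 of 4 pairs. Adora1 footprints were at 60.2, 73.9, 68.6, 67.3 and 64.2 CPM after DHPG, which spans the basal range of 61.1 to 72.6 CPM, with a log2 fold change of 0.056 ± 0.041 (SE; adjusted p = 0.67, edgeR). Drd5 had log2 fold changes of 0.12 ± 0.11 in RNA and -0.032 ± 0.10 in RPF, and Htr3a of 0.00051 ± 0.11 and -0.0011 ± 0.074 (SE), with adjusted p of 0.82 or more by edgeR. Over the other receptors tested in both assays, the log2 fold changes ran from -0.12 (Htr2c) to 0.35 (Drd2, in 3 to 12 counts per basal library) in RNA and from -0.044 (Adra1a) to 0.34 (Drd2) in RPF. Adora2a, tested in RNA alone, had a log2 fold change of 0.43 ± 0.26 (SE; adjusted p = 0.69, edgeR), in 9 to 17 counts per basal library. It was higher in 4 of 4 pairs.

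The change of the ratio of RPF to RNA with DHPG was tested as the interaction of assay and treatment over all 19 libraries. Of the 30 receptors, 0 passed an adjusted p of 0.05 by edgeR (0% of all genes tested did, 0 of 12691), 0 passed by limma on paired differences, and 0 had an unadjusted p under 0.05 (6.69% of all genes did). The ratio was higher after DHPG for 11 and lower for 19 of them, with a median change of -0.015 on the log2 scale against -0.0017 over all genes. The fitted changes ran from -0.37 ± 0.27 (Htr1f) to 0.15 ± 0.16 (Hrh1) on the log2 scale (SE). A change of Drd2 would have had to be large to be seen, since its standard error was 0.70.

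The genes around the receptors gave few differences either. In RPF no gene of the lists of G protein alpha subunits (10 tested), adenylyl cyclases (8), phospholipase C beta (4), receptor kinases and arrestins (6), or of transmitter synthesis (5), transport (7) and breakdown (7) passed the threshold in edgeR, and 6 had an unadjusted p under 0.05. In RNA none of these 7 lists had a gene past the threshold, and 6 genes had an unadjusted p under 0.05. The lowest p of these was that of Ache, the enzyme that breaks down acetylcholine, in RPF (log2 fold change 0.14, adjusted p = 0.083, edgeR).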

How the data were processed

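The authors deposited unnormalized expected counts (RSEM output in whole numbers) for 20436 genes, in separate tables for RNA and RPF. Per the paper's methods and the submitters' processing notes, adapters were removed (cutadapt), rRNA and tRNA reads filtered out (Bowtie2), the rest aligned to mm10 (TopHat2), duplicates removed by molecular identifiers, and RPFs counted on coding sequences without their ends and RNA on transcripts. Whether counting used strand is not given in the sources used here. The exons of Adora1, Adra1d, Chrm1, Chrm2, Drd5, Hrh2, Hrh3 and Htr1b overlap a gene on the other strand, so the reads of both could not be told apart without strand. The 12 columns of these tables that belong to no sample analysed here were not used. Replicates were pools of slices of several mice.

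The packages were edgeR 4.0.16, DESeq2 1.42.0, limma 3.58.1 and sva 3.50.0, in R 4.3.3. Main tests were edgeR's quasi-likelihood test (TMM, filterByExpr, replicate number as a block, Benjamini-Hochberg over all genes tested) at an adjusted p of 0.01 for RNA and 0.05 otherwise. Every adjusted p is edgeR's unless another tool is named. Log2 CPM used a prior count of 2. Same-numbered basal and DHPG libraries deviated together from their group means (correlations 0.31 to 0.74 in RNA and 0.26 to 0.52 in RPF), and the block is that of the study's batch correction. Gene positions, lengths, leaders and start sequences come from GENCODE vM21 (20325 of 20436 genes and all 41 receptors matched). The receptors, pathway lists and marker lists were chosen with earlier results of these data known. Log2 fold changes were given for the receptor with most RNA per length in each family and for those with an unadjusted p under 0.05, and basal ratios for the first of these and the 3 highest and 3 lowest. Ends of ranges and the receptors that were called or changed call were named after their values were seen. So were Adora2a for its fold change and the receptors whose place in the order differed between assays. The alternatives were DESeq2's size factors, no filter, at least 10 counts in every library, no block, DESeq2 with the block, ComBat then DESeq2, limma on paired differences, ratios per length, ratios in DHPG libraries and each replicate left out. The values of 1 receptor and 1 pathway gene are not reported here. The tests were run on simulated data with known changes. For changes of 0.5 on the log2 scale, 56% of changed genes were recovered in RNA and 77% in RPF. For the change of ratio 32% were recovered, and for the basal ratio 54%. For changes of 1 these were 100%, 100%, 95% and 100%. The changed genes were picked above a count limit that some receptors, such as Drd2, did not reach. Every simulated gene had the same dispersion and the same size of replicate effect. Recovery can therefore be lower for receptors that vary more between replicates. Counts carry sampling error set by totals of 4870813 to 22092434 per library.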

Additional observations from a re-analysis of the deposited data

Results flagged for a closer look

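Groups of libraries were screened for a single value far from the rest of its group (Dixon's test at the 95% level). Of 124 groups of receptor values, 3 had one, where chance gives about 6.2. Htr1b RNA was at 7.07 CPM in DHPG replicate 1, with the other 4 DHPG libraries between 9.07 and 9.19 CPM. Hrh3 footprints were at 32.7 CPM in basal replicate 4, with the other 4 basal libraries between 26.5 and 27.9 CPM. Htr5b footprints were at 8.63 CPM in basal replicate 1, with the others between 10.1 and 10.7 CPM.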

How the results depend on the processing

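With no replicate block in place of the paired fit, 0 receptors were called in RNA, 0 in RPF, 0 in the change of ratio, 3 with a higher and 12 with a lower basal ratio, the same counts as with the block. Over all genes, edgeR called 1 in RNA and 29 in RPF with the block and 0 and 0 without it. The count of receptors called in RPF was 1 (Adra1b) with no filter on low counts and 0 in every other fit. The count of higher basal ratios was 7 per counted length. The count of lower basal ratios stayed within 1.5 times 12 in every fit tried. Over all genes, the RPF calls ran from 3 without replicate 2 to 71 without replicate 3, and ComBat followed by DESeq2 called 100 genes in RNA and 427 in RPF, with no receptor among them. Differences near 0 changed sign. Hrh1 RNA had a log2 fold change of -0.022 with no replicate block. Htr3a RNA had -0.0064 with no filter and -0.0060 with at least 10 counts, and Htr3a RPF 0.0051 with no replicate block and 0.0023 in DESeq2 with the block. The basal log2 ratio turned to 1.23 for Adora1 and 1.14 for Chrm1 per counted length, which follows from their low coding share, and to 0.042 for Adra1d in the DHPG libraries, where the cause was not tested. Leaving out each replicate in turn, log2 fold changes ran over 0 in RNA for Adra1d (-0.10 to 0.048), Chrm2 (-0.027 to 0.32), Chrm4 (-0.063 to 0.076), Hrh1 (-0.043 to 0.13), Hrh3 (-0.021 to 0.18) and Htr3a (-0.092 to 0.074), and in RPF for Drd5 (-0.10 to 0.017) and Htr3a (-0.063 to 0.047), as did the basal log2 ratio of Adra1d (-0.24 to 0.066) and Chrm1 (-0.23 to 0.066). None of these was called in the main test. Depth limits Drd2 and Adora2a, with at most 19 counts in a basal library of either assay, and the 9 receptors that passed no filter.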
